A study of Homo sapiens with 12 samples.

Results

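Genes of the integrated stress response and of amino acid supply, 50 in all, were followed through 12 RNA sequencing libraries of a prostate cancer cell line. They were taken by symbol from a list that holds the eIF2-alpha kinases and phosphatase subunits, ATF4 and its partner factors, and genes of serine, asparagine, proline and one-carbon synthesis, amino acid carriers, tRNA synthetases and stress outputs. All 50 of the 50 symbols matched 1 gene each among the 63241 genes of every deposited table. Of the 50, 49 passed the filter on low counts; FGF21, a secreted stress hormone, did not, with 0 to 10 counts per library.

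All 12 libraries came from MDA-PCA-2B cells, an established line from a human prostate cancer. They formed 4 groups of 3. One is labelled NT, KD1 and KD2 are a first and a second knock down of DHODH, and KDR is the rescue of the second. DHODH encodes the mitochondrial dehydrogenase of pyrimidine synthesis, which passes electrons to ubiquinone. The labels do not say what NT stands for, which construct was used against DHODH, how the rescue was made, whether a group is 1 clone, or whether its libraries are separate cultures. P-values therefore measure the spread between these libraries, which may be technical. All groups grew in BRFF-HPC1 medium with fetal bovine serum, by a protocol that also names the related line MDA-PCa-2a. Levels are counts per 1000000 counts (CPM), scaled by trimmed mean of M values.

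The integrated stress response begins with kinases that each sense a different stress and phosphorylate the translation factor eIF2-alpha. EIF2AK1 (HRI) senses haem loss and mitochondrial stress, EIF2AK2 (PKR) double-stranded RNA, EIF2AK3 (PERK) misfolded protein in the endoplasmic reticulum, and EIF2AK4 (GCN2) uncharged tRNA. Phosphorylation slows translation in general and lets the ATF4 mRNA be read past its upstream reading frames, so ATF4 protein is set mainly at translation and its RNA level is only part of its control. ATF4 then pairs with C/EBP factors on composite DNA elements and induces genes that make, import and charge amino acids. In prostate cancer cells the carriers SLC7A5 and SLC1A5 are among its known targets and are also driven by the androgen receptor. Protein and phosphorylation were not measured here, and in bulk RNA fewer cells that express a gene and less RNA per cell cannot be told apart.

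Libraries held 23786288 to 38240369 counts. DHODH itself stood at 9.19, 13.4 and 8.95 CPM in NT, 11.0, 10.4 and 9.63 in KD1, 11.4, 13.0 and 14.9 in KD2, 18.9, 19.2 and 17.5 in KDR, on 235 to 647 counts. Neither knockdown label came with a called fall of the targeted RNA. Against NT its log2 fold change was -0.03 in KD1 (edgeR adjusted p = 0.97) and 0.31, a higher value, in KD2 (adjusted p = 0.097). In KDR it was higher than in NT by 0.82 and than in KD2 by 0.51 (adjusted p = 1.0e-04 and 0.0064). Directions below belong to the labels. NT replicate 2 stood apart from the other NT libraries: the chi-square of its counts against theirs was 23.7 and 24.9 per degree of freedom, against 7.84 between the other pair. It was the highest NT library for 35 of the 49 members tested and the lowest for 13. The summed CPM of 10 prostate luminal markers ran from 16134 to 19114 in NT, 16213 to 16595 in KD1, 10843 to 11158 in KD2 and 16206 to 16643 in KDR, with all 10 above 1 CPM in each group. Over 6 cell division markers the sums were 188 to 203 in NT, 189.9 to 201 in KD1, 515 to 538 in KD2 and 299 to 302 in KDR. In KD2 against NT, 9 of the 10 luminal markers were called lower and all 6 division markers higher. Both sums move with the results below, and their part in them was not tested. Markers of fibroblasts (6 genes), leukocytes (5) and endothelium (4) summed to at most 5.12, 0.568 and 0.707 CPM in any library, with CD3E, CD68, CDH5 and the VEGF receptor gene KDR listed at 0 throughout.

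Most of the genes were lower in KD2 than in NT. Of the 49 tested, 37 fell, 1 rose and 11 were not called, with a median log2 fold change of -0.48. Of all 19373 genes tested 35.9% were called, 18.2% lower and 17.8% higher, with a median of -0.0099. Because 48 of the 49 average at least 10 CPM, where calls come more easily, the closer background is the 9839 genes at that level, of which 24.4% were called lower and 24.8% higher. Without NT replicate 2 there were 40 lower and 2 higher. The called falls ran from 0.20 for the arginine and lysine carrier SLC7A1 to 1.59 for CHAC1 on the log2 scale, and 5 members changed by at least 2-fold. Against KD1, the other group set beside KD2, 40 members were lower and 1 higher, with a median of -0.43. Of all genes 35.5% were called there, 17.5% lower and 17.9% higher, and of those of at least 10 CPM, 23.6% lower and 25.3% higher. These comparisons share the KD2 libraries.

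In KDR, levels of many members stood between those of KD2 and NT. Against KD2, 30 of 49 rose and 4 fell (median 0.25). Of all genes tested 32.4% were called there, 15.3% higher and 17.1% lower, and of those of at least 10 CPM, 17.8% higher and 24.5% lower. Against NT, 33 were lower and 1 higher in KDR (median -0.32). Of all genes tested 27.5% were called in that comparison, 14.5% lower and 13% higher, and of those of at least 10 CPM, 20.9% lower and 15.5% higher. The KD2 libraries enter both the comparison with NT and that with KDR, and the NT libraries enter both comparisons with NT, so these counts are not independent of each other. Without NT replicate 2, 36 rose and 5 fell against KD2, and 34 were lower and 1 higher against NT, with a median of -0.23.

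**Figure D1:**
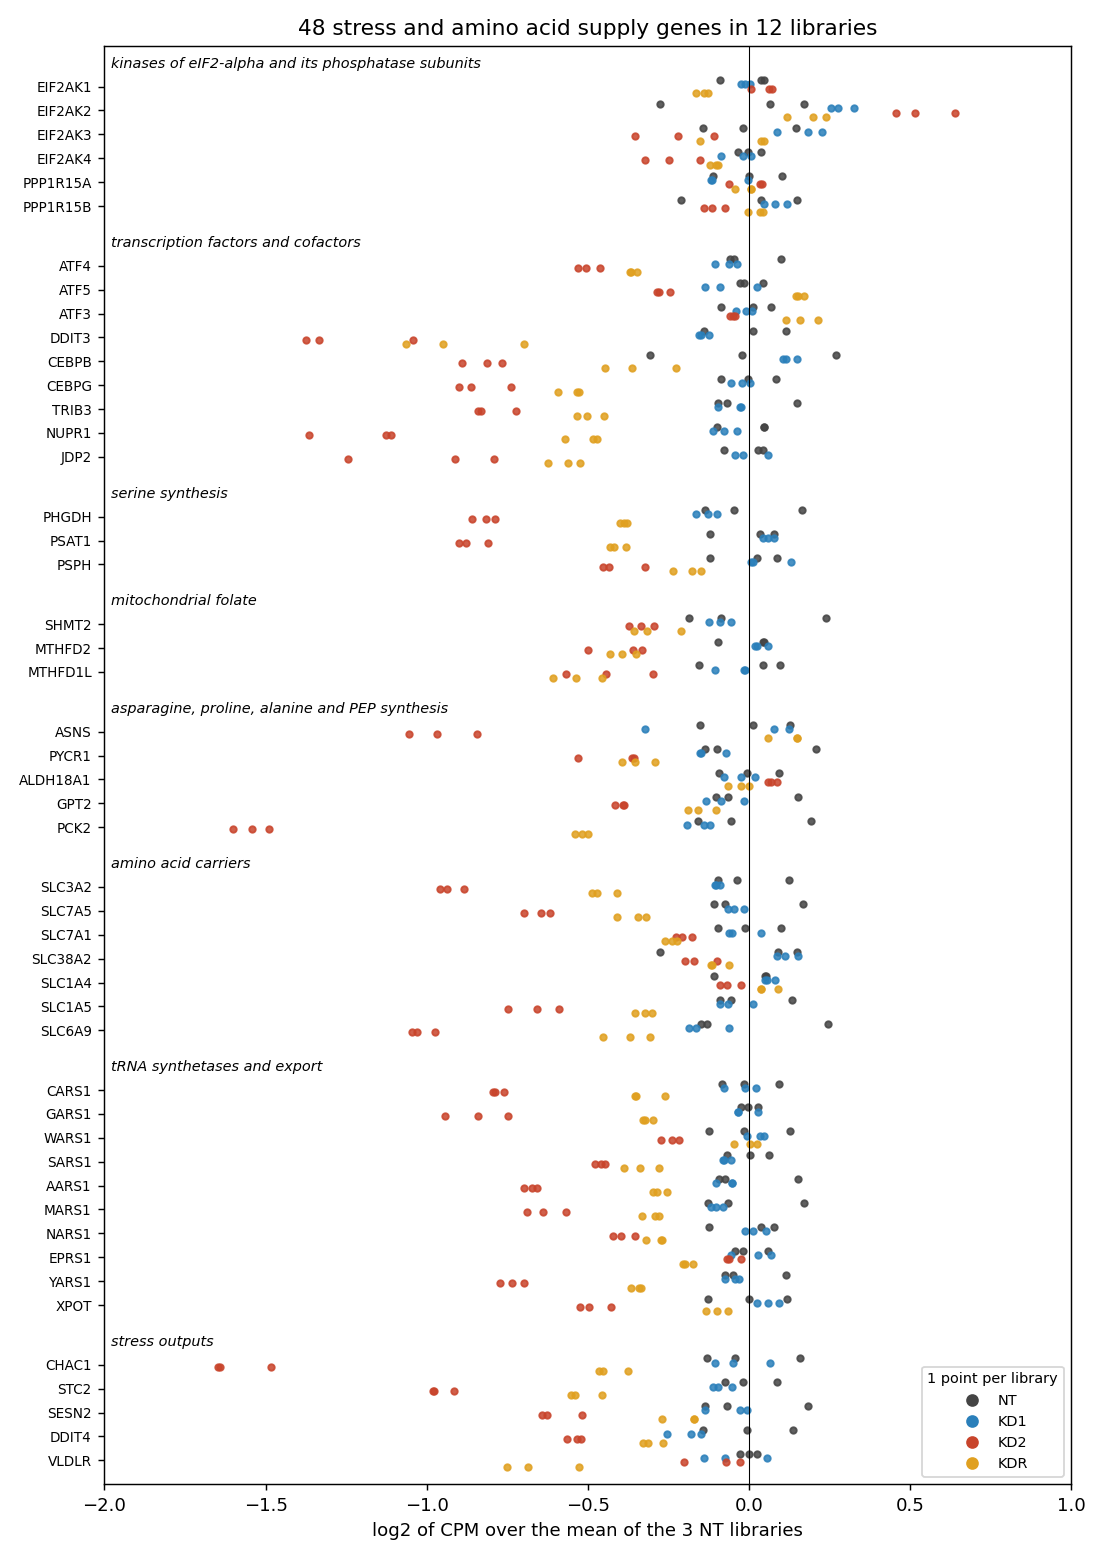
Level of each of 48 genes in every library as the log2 of its CPM over the mean of the 3 NT libraries (horizontal axis), grouped by role; each point is 1 library and colours mark the groups. KD2 points lie left of NT for most rows, KDR points often lie between them, and ATF3, PPP1R15A, ALDH18A1 and EPRS1 stay near 0 in KD2. FGF21 and ALDH1L2, with means below 1 CPM, are left out.

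No member was called between KD1 and NT. Of the 49 tested, edgeR, DESeq2 and limma-voom each called 0, and 4 had an unadjusted edgeR p under 0.05; 0% of all genes were called, and 1185 genes had an unadjusted p under 0.05. The median log2 fold change was -0.04, and 0.00 without NT replicate 2. ATF4 differed by -0.07 (95% interval -0.17 to 0.03), CHAC1 by -0.03 (95% interval -0.19 to 0.13) and PSAT1 by 0.06 (95% interval -0.05 to 0.17), intervals that exclude a change of the size seen in KD2 for each of these genes. EIF2AK2 had the most positive value, 0.29 (adjusted p = 0.79; 0.17 without NT replicate 2), with all 3 KD1 libraries above all 3 NT libraries; 4.41% of all genes tested were separated that way. DDIT4 was separated downwards (-0.19, adjusted p = 0.79), as were 4.99% of all genes.

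Promoters of the members often carry the C/EBP-ATF composite element, spelled here as TGATGNAAN and searched on both strands. RefSeq windows (GRCh38.p14, 250 bases before to 50 after a start) were found for 42 of the 50 members, and 17 of those (40.48%) held a match in at least 1 of their windows, against 4.45% of all 27305 genes with a window. Counted by window, 28.79% of the 66 windows of members and 3.61% of all 35116 windows held a match. The exact form TGATGCAAC was found for 8 members (19.05%) and 75 genes in all (0.275%). The set was drawn up around ATF4 and genes it is known to induce. A high share of the element therefore follows from the choice of genes and is no result of these libraries. The 250 bases before the start are shown for CHAC1, GARS1 and CEBPG, 3 of the 4 members with a match whose fall in KD2 had the smallest adjusted p. The match of the fourth, SLC3A2, lies after its start, and only the site is shown. Sequences run 5′ to 3′ on the strand of the gene, with the match in capitals, which in CHAC1 and GARS1 reads on the opposite strand.
CHAC1, chr15:40953221-40953470, plus strand: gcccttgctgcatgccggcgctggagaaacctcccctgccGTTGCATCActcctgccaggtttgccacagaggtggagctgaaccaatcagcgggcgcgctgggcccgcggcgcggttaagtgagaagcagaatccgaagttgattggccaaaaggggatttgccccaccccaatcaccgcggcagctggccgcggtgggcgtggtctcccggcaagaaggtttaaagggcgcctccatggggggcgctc
GARS1, chr7:30594628-30594877, plus strand: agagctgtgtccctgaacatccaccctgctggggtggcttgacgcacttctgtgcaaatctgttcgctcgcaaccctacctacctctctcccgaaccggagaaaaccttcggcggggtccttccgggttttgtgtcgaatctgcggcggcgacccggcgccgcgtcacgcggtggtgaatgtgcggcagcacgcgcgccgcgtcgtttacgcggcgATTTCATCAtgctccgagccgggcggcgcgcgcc
CEBPG, chr19:33373863-33374112, plus strand: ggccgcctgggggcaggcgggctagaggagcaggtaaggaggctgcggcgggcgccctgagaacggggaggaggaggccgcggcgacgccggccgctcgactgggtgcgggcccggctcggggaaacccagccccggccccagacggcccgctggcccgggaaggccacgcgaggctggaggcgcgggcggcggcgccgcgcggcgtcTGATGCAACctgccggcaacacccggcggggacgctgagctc

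The sites themselves, read 5′ to 3′ on the strand of the match with up to 10 bases on either side, are set side by side for the 13 tested members called lower in KD2 and for the 3 that were not called, to show that both kinds carry the element. Capitals mark the match.
CHAC1: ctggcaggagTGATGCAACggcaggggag
CEBPG: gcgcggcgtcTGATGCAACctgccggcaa
JDP2: tagccggggcTGATGCAACccgtcccgcc
CARS1: tcctagaatcTGATGCAACcgccgccccg
AARS1: ctaacttggcTGATGCAACtgcgagaaaa
MARS1: aatccctcgcTGATGCAACcggaaccggc
NARS1: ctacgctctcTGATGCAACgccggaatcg
GARS1: gctcggagcaTGATGAAATcgccgcgtaa
ASNS: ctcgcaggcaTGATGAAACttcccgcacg
SLC1A5: aggaagtggcTGATGCAAGctgtccaggg
SLC3A2: ggagcTGATGTAAGgagtcctgca
MTHFD1L: ccgccggctcTGATGCAATcgcgccgggc
SLC7A1: ggcgcactgcTGATGAAACctggcgccgg
PPP1R15B: ccgccccggcTGATGCAACctcacgctgc
SLC1A4: cggctggagaTGATGCAAAcgggagccgc
ATF3: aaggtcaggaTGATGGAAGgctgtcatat
The first 7 lines and PPP1R15B share TGATGCAAC; PPP1R15B, SLC1A4 and ATF3 are the uncalled ones. Of 16 tested members with a match, 13 were lower in KD2 than in NT (median log2 fold change -0.67), and of 25 with a window and no match, 18 were lower and 1 higher (median -0.48). PCK2, with the smallest adjusted p of all members in that comparison, was among those without a match. A match describes letters in this window only and does not show that a factor binds there.

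Among the kinases, EIF2AK2 was the one member of the whole set that rose in KD2 against NT. EIF2AK2 (ENSG00000055332, GRCh38 chromosome 2, 37099210 to 37157522) stood at 52.8, 38.8 and 49.1 CPM in NT, 58.8, 56.8 and 55.9 in KD1, 73.1, 67.1 and 64.4 in KD2 and 55.4, 50.9 and 53.8 in KDR. The KD2 libraries were the highest, NT replicate 2 the lowest, and KD2 did not overlap any other group. Its log2 fold change was 0.54 in KD2 against NT (95% interval 0.36 to 0.73, adjusted p = 4.1e-05) and -0.35 in KDR against KD2 (adjusted p = 0.0035). It was also higher in KD2 than in KD1 (0.26, adjusted p = 0.028). That call was lost in 6 of 21 alternatives, among them those that leave out any KD1 library or KD2 replicate 1 or 2 (adjusted p = 0.053 to 0.14). GCN2, the sensor of uncharged tRNA, moved the other way: EIF2AK4 stood at 139.8, 144 and 137 CPM in NT, 132, 138 and 141 in KD1, 118, 126 and 112 in KD2 and 131, 129 and 130.3 in KDR. All 3 KD2 values lay below all NT and KD1 values, a difference of -0.24 from NT (adjusted p = 0.0023). KDR against KD2 gave 0.13 (adjusted p = 0.088), called in 6 of 21 alternatives, among them the one without NT replicate 2 (0.024).

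PERK RNA was the lowest of the kinases per length of exon, below the NT levels of 4.25 CPM per kb for EIF2AK2, 11.7 for EIF2AK4 and 63.7 for EIF2AK1. These values depend on the annotated exon length, 20691 bases for EIF2AK3 against 5492 to 11988 for the others. EIF2AK3 stood at 32.8, 30.0 and 36.8 CPM in NT, 35.3, 37.7 and 38.8 in KD1, 26.0, 30.8 and 28.5 in KD2 and 34.1, 29.9 and 34.3 in KDR. NT and KD2 overlapped, and the log2 difference of -0.22 was not called (adjusted p = 0.067), though it was in 6 of 21 alternatives, for instance without NT replicate 2 (0.0076) or KD2 replicate 2 (0.046). Of the exon bases of EIF2AK3 3.8%, and of its coding bases 23.3%, also lie in exons of another gene, so its level rests on part of its length. HRI RNA was not called in KD2 against NT (0.05): EIF2AK1 stood at 359, 361 and 329 CPM in NT, 347, 344 and 351 in KD1, 351, 365 and 368 in KD2 and 317, 320.1 and 312 in KDR. KDR was lower than KD2 by 0.19 (adjusted p = 0.0046) and lower than NT by 0.14 (adjusted p = 0.034), the latter a call lost in 7 of 21 settings. They include leaving out NT replicate 1 (0.094) or any one KDR replicate (0.072 to 0.12).

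The phosphatase subunits that restore translation by bringing protein phosphatase 1 to eIF2-alpha were not called in KD2 against NT. PPP1R15A (GADD34), itself a stress-induced target, had means of 193 ± 14.3, 183 ± 8.47, 194 ± 7.49 and 192 ± 3.96 CPM in NT, KD1, KD2 and KDR (SD, n = 3). The difference of 0.01 in KD2 had an interval of -0.12 to 0.13. PPP1R15B, the constitutive partner, differed by -0.11 (adjusted p = 0.25), or -0.20 without NT replicate 2 (adjusted p = 4.8e-04).

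ATF4 RNA was lower in KD2 and in KDR than in NT. ATF4 (ENSG00000128272, GRCh38 chromosome 22, 39519695 to 39522683) stood at 784, 867 and 776 CPM in NT, 788, 752 and 775 in KD1, 570.3, 561 and 587 in KD2 and 626, 636 and 627 in KDR. The 4 groups fell into an order of NT and KD1, whose libraries overlapped, then KDR, then KD2, with no overlap between KDR and KD2. The log2 fold change was -0.50 in KD2 against NT (95% interval -0.60 to -0.40, adjusted p = 1.9e-08), -0.36 in KDR against NT (adjusted p = 4.5e-06) and 0.14 in KDR against KD2 (adjusted p = 0.031). That last call was lost in 6 of 21 alternatives, without KD2 replicate 1 (0.084) or 2 (0.13), without any one KDR replicate (0.074 to 0.10) and without the filter on low counts (0.099). Per kb of exon ATF4 was among the most abundant members, at 309.6 CPM per kb in NT, second to PSAT1 at 333.

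Of 9 transcription factors and cofactors, 8 fell in KD2 against NT and ATF3 was not called. In KDR all 9 rose against KD2, and against NT 7 were lower and 1 higher. Among all genes of at least 10 CPM, 24.4% fell in KD2 against NT and 17.8% rose in KDR over KD2. In KDR against NT, 20.9% of them were lower and 15.5% higher. DDIT3 (CHOP), which promotes death in prolonged stress, had the lowest ratio to NT of the 9: its NT mean was 26.8 ± 2.36 CPM, its KD1 mean 24.3 ± 0.284, its KD2 mean 11.3 ± 1.47 and its KDR mean 14.4 ± 1.91 (SD, n = 3). That is a log2 fold change of -1.25 in KD2 (adjusted p = 8.4e-09) and -0.90 in KDR against NT. Its rise of 0.35 in KDR over KD2 had overlapping libraries and was lost without KD2 replicate 1 (adjusted p = 0.10) or 2 (0.12) or KDR replicate 2 (0.17). Since 33.5% of DDIT3 coding bases also lie in exons of MARS1, and reads over both genes are not counted, DDIT3 is measured on the rest of its length.

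NUPR1, a small chromatin-bound stress protein, stood at 51.3, 56.8 and 56.7 CPM in NT, 52.1, 50.8 and 53.6 in KD1, 25.2, 21.3 and 25.4 in KD2 and 37.0, 39.6 and 39.3 in KDR. KD2 libraries were all below KDR and KDR below NT. The log2 fold changes were -1.20 in KD2 against NT (adjusted p = 6.4e-11) and 0.69 in KDR against KD2 (adjusted p = 6.9e-07). TRIB3, a pseudokinase that ATF4 and CHOP induce and that restrains ATF4, stood at 306, 363 and 313 CPM in NT, 322, 306 and 321 in KD1, 184, 183 and 198 in KD2 and 240.0, 231 and 226 in KDR. Again no library of KD2, KDR or NT crossed into another of these groups, with -0.80 in KD2 against NT (adjusted p = 5.1e-10) and 0.30 in KDR against KD2 (adjusted p = 5.0e-04). CEBPG, a C/EBP partner of ATF4 whose upstream sequence is printed above, stood at 198, 187 and 211 CPM in NT, 196, 199 and 191 in KD1, 119, 106 and 109 in KD2 and 137, 132 and 138 in KDR. It differed by -0.83 (adjusted p = 1.6e-10) and 0.28 (adjusted p = 8.4e-04) in the same comparisons. Of the coding bases of NUPR1, 44.7% also lie in exons of another gene, so its level too rests on part of its length.

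The other C/EBP and bZIP members moved alike in KD2: CEBPB, of stress and inflammation, fell by 0.82, and JDP2, a repressor of AP-1, by 0.98 (adjusted p = 4.0e-07 and 4.0e-08). CEBPB was also lower in KDR than in NT (-0.34, adjusted p = 0.0095), with overlapping libraries and no call without NT replicate 3 (-0.19, adjusted p = 0.084) or KDR replicate 2 (0.063). Of its coding bases 22.3% also lie in exons of CEBPB-AS1, so CEBPB is measured on part of its length. ATF5, which like ATF4 is controlled through upstream reading frames, fell by 0.27 in KD2 (adjusted p = 0.0075) and rose by 0.42 in KDR over KD2 (adjusted p = 1.3e-04), to a mean of 38.6 CPM against 34.7 in NT, a difference not called (adjusted p = 0.13).

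ATF3, an early stress-induced repressor, differed from this pattern in its values: 525, 546 and 489.6 CPM in NT, 517, 507 and 524 in KD1, 503, 505 and 499.8 in KD2 and 563, 604 and 581 in KDR. KD2 overlapped NT and lay below KD1, with -0.05 in KD2 against NT (95% interval -0.15 to 0.05), while every KDR library was above every other one. KDR exceeded KD2 by 0.21 (adjusted p = 0.0016) and NT by 0.16 (adjusted p = 0.015). The call against NT was lost without NT replicate 3 (0.08) or KDR replicate 2 (0.096), and with only the groups compared in the fit (0.089).

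**Figure D2:**
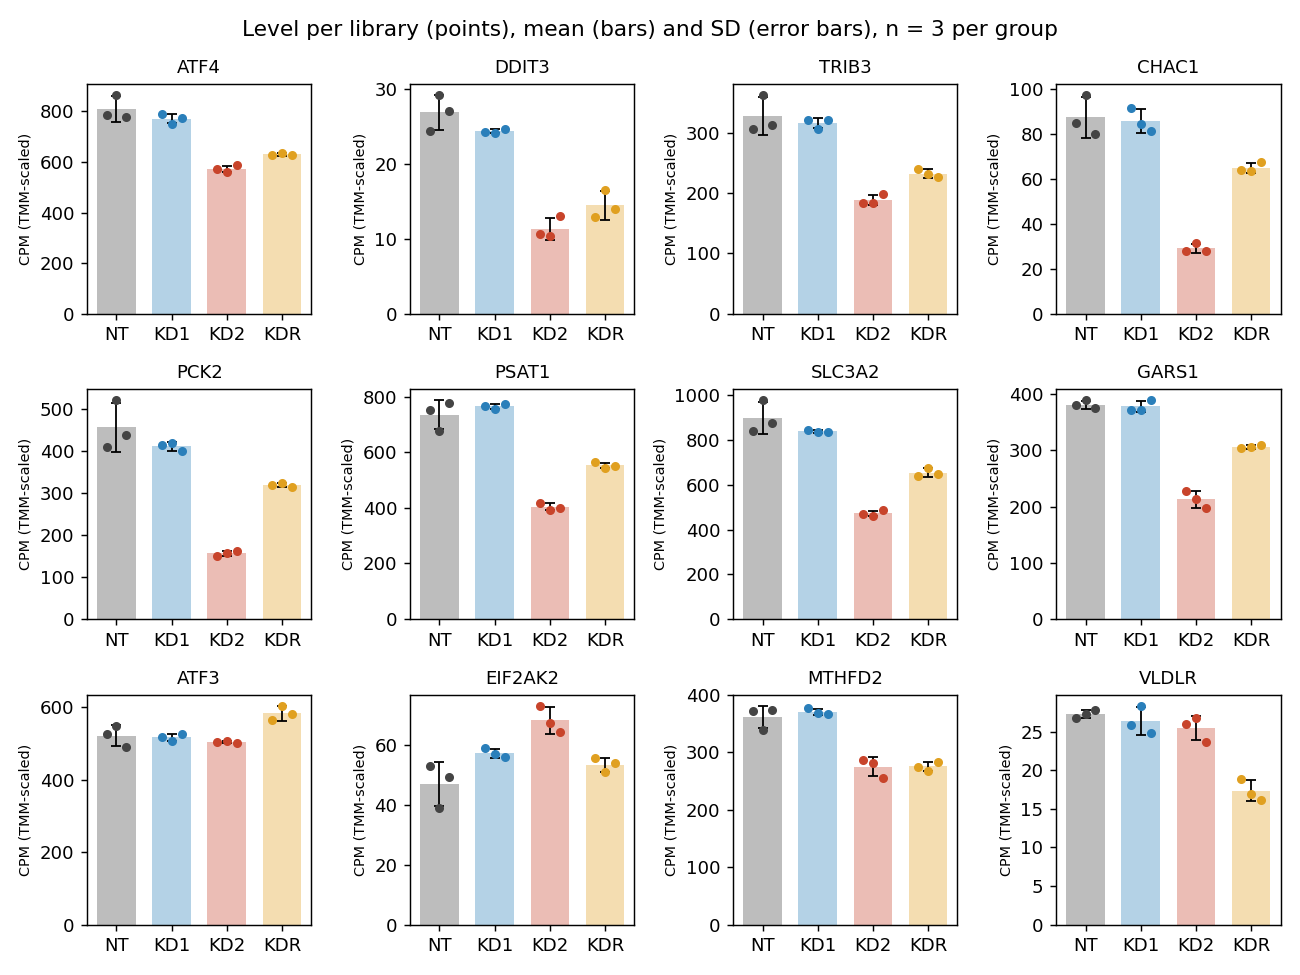
TMM-scaled CPM per library for 12 members: points are libraries, bars group means, error bars SD over 3 libraries, and each vertical axis starts at 0. KD2 has the lowest mean in every panel except EIF2AK2, where it is highest, and VLDLR, where KDR is lowest. MTHFD2 has a mean of 275 CPM in both KD2 and KDR, and ATF3 is highest in KDR.

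The 3 genes of serine synthesis from phosphoglycerate fell in KD2 against NT, and all 3 rose in KDR over KD2. Among all genes of at least 10 CPM, 24.4% fell and 17.8% rose in these comparisons. PHGDH, the first and committing dehydrogenase, stood at 736, 908 and 784 CPM in NT, 756, 723 and 742 in KD1, 446, 469 and 460.1 in KD2 and 623, 619 and 613 in KDR. PSAT1, the transaminase (ENSG00000135069, GRCh38 chromosome 9, 78297125 to 78330093), stood at 753, 675 and 776 CPM in NT, 765, 757 and 775 in KD1, 419, 394 and 399 in KD2 and 564, 544 and 549.7 in KDR. For both, the KDR libraries lay between KD2 and NT without overlap, and NT replicate 2 was highest in NT for PHGDH and lowest for PSAT1. The log2 fold changes in KD2 against NT were -0.82 and -0.86 (adjusted p = 1.2e-10 and 5.8e-12), and in KDR against KD2 0.43 and 0.45 (adjusted p = 3.6e-06 and 3.2e-07). PSPH, the phosphatase of the last step, stood at 71.5, 74.5 and 64.6 CPM in NT, 76.8, 70.7 and 70.6 in KD1, 56.2, 51.3 and 51.9 in KD2 and 59.6, 63.3 and 62.2 in KDR. It fell by 0.40 in KD2 (adjusted p = 1.0e-04), and its rise of 0.21 in KDR (adjusted p = 0.025) was lost in 5 of 21 alternatives. These were without KD2 replicate 2 (0.11) or 3 (0.091), without KDR replicate 2 (0.099) or 3 (0.078), and without the filter (0.05).

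The mitochondrial folate enzymes, which take the carbon of serine on to formate, fell in KD2 but were not called higher in KDR. MTHFD2, the dehydrogenase and cyclohydrolase (ENSG00000065911, GRCh38 chromosome 2, 74186172 to 74217565), stood at 372, 338 and 374 CPM in NT, 376, 368 and 366 in KD1, 287, 282 and 256 in KD2 and 275, 268 and 283 in KDR. KD2 and KDR overlapped and both lay below every NT and KD1 library. KD2 against NT gave -0.39 (adjusted p = 4.9e-06) and KDR against KD2 0.00 (95% interval -0.11 to 0.12). MTHFD1L, the formate-releasing synthetase, stood at 76.6, 91.1 and 87.8 CPM in NT, 79.2, 84.2 and 84.5 in KD1, 57.4, 62.7 and 69.3 in KD2 and 55.9, 58.7 and 62.1 in KDR. KD2 and KDR overlapped here too. It differed by -0.43 and -0.10 in the same comparisons (adjusted p = 1.2e-04 and 0.37). SHMT2, the serine hydroxymethyltransferase, stood at 227, 285 and 212 CPM in NT, 227, 221 and 232 in KD1, 186, 197 and 191 in KD2 and 194, 208 and 188 in KDR. NT replicate 2 was the highest library of all. SHMT2 differed by -0.33 (adjusted p = 0.0014) and 0.04 (adjusted p = 0.73). Without NT replicate 2 its differences from NT were smaller, -0.20 in KD2 and -0.16 in KDR, and both were also called. All 3 were lower in KDR than in NT, by 0.29 to 0.53 (adjusted p = 0.0059 or smaller), the smallest being that of SHMT2. ALDH1L2, the mitochondrial formyltetrahydrofolate dehydrogenase, had 5 to 19 counts per library, too few to show a change. Its KD2 difference of -0.07 had an interval of -1.41 to 1.28.

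PCK2, the mitochondrial phosphoenolpyruvate carboxykinase, had the smallest adjusted p of all members in KD2 against NT. PCK2 (ENSG00000100889, GRCh38 chromosome 14, 24094053 to 24110598) stood at 409.7, 522 and 440.0 CPM in NT, 415, 420.4 and 401 in KD1, 151, 157 and 163 in KD2 and 319, 324 and 315 in KDR. The KD2 mean was 2.92-fold below NT (-1.54, 95% interval -1.69 to -1.40, adjusted p = 2.1e-14). KDR was 2.04-fold above KD2 (1.03, adjusted p = 3.3e-11) and lower than NT by 0.52 (adjusted p = 2.4e-06), with all 3 KDR libraries between those groups.

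ASNS, the asparagine synthetase, was the one enzyme among those of asparagine, proline, alanine and phosphoenolpyruvate synthesis whose KDR mean was above its NT mean. ASNS (ENSG00000070669, GRCh38 chromosome 7, 97851677 to 97872542) stood at 10.8, 13.1 and 12.1 CPM in NT, 13.1, 12.7 and 9.60 in KD1, 5.79, 6.70 and 6.14 in KD2 and 12.5, 13.3 and 13.3 in KDR. KD2 libraries were the lowest and the other 3 groups overlapped. The log2 fold changes were -0.95 in KD2 against NT (adjusted p = 6.5e-06), 1.07 in KDR against KD2 (adjusted p = 1.6e-06) and 0.12 in KDR against NT (adjusted p = 0.55). These values rest on part of the gene: 100% of its coding bases (GENCODE) also lie in exons that the deposited tables give to another gene, ENSG00000284707, which itself had 26 to 69 counts per library. Reads over 2 genes are not counted by featureCounts, so the ASNS count comes from exon parts outside the coding sequence, and its level of 2.45 CPM per kb in NT cannot be set beside the other enzymes.

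GPT2, the mitochondrial alanine transaminase, stood at 152, 181 and 156 CPM in NT, 149, 161 and 154 in KD1, 122, 124 and 125 in KD2 and 143, 146 and 152 in KDR. It fell by 0.40 in KD2 (adjusted p = 3.1e-05) and rose by 0.25 in KDR over KD2 (adjusted p = 0.0045). PYCR1, the last enzyme of proline synthesis, fell by 0.41 in KD2 (adjusted p = 9.3e-05) and differed by 0.07 in KDR against KD2 (adjusted p = 0.51). ALDH18A1, the first enzyme of that route, had means of 198, 194, 208 and 194 CPM and was not called (KD2 against NT 0.07, adjusted p = 0.35, or 0.12 and 0.029 without NT replicate 2).

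Of the 7 amino acid carriers, 5 fell in KD2 against NT and 4 rose in KDR over KD2. Among all genes of at least 10 CPM, 24.4% fell and 17.8% rose in these comparisons. SLC3A2, the heavy chain that brings several light chains to the membrane (ENSG00000168003, GRCh38 chromosome 11, 62856004 to 62888880), stood at 842, 979 and 875 CPM in NT, 845, 838 and 836 in KD1, 469, 462 and 486 in KD2 and 641, 677 and 648 in KDR. SLC7A5 (LAT1), its partner for leucine and other large neutral amino acids, stood at 1269.7, 1502 and 1242 CPM in NT, 1325, 1278 and 1295 in KD1, 825, 856 and 871 in KD2 and 1072, 1054 and 1008 in KDR. Both chains of this carrier were lowest in KD2 and intermediate in KDR with no overlap. The log2 fold changes were -0.93 and -0.65 in KD2 against NT (adjusted p = 2.0e-12 and 3.3e-09). They were 0.47 and 0.30 in KDR against KD2 (adjusted p = 2.0e-07 and 2.6e-04). SLC1A5 (ASCT2), which imports glutamine, stood at 685, 799.5 and 702 CPM in NT, 735, 685 and 697 in KD1, 434, 462 and 485 in KD2 and 583, 591 and 569.8 in KDR. It was lowest in KD2 and intermediate in KDR as well, differing by -0.66 and 0.34 (adjusted p = 3.1e-09 and 6.8e-05).

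SLC6A9, the glycine carrier GLYT1, had the largest change among the 7 in KD2, -1.02 against NT and 0.64 in KDR against KD2 (adjusted p = 5.2e-09 and 6.8e-06). SLC7A1, for arginine and lysine, was lower in KD2 by 0.20 (adjusted p = 0.0036) and in KDR by 0.24 (adjusted p = 0.0013), both against NT. SLC1A4, for serine and alanine, was not called in either (-0.06 and 0.05), although its promoter window holds the composite element. SLC38A2 (SNAT2), which amino acid shortage induces, depended on 1 library: its NT values were 492, 367 and 473 CPM, so that KD2 differed from NT by -0.15 (adjusted p = 0.11) with NT replicate 2 and by -0.28 (adjusted p = 1.2e-07) without it.

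Of 9 cytosolic tRNA synthetases, which charge tRNAs with amino acids, 8 fell in KD2 against NT, and in KDR over KD2 6 rose and 1 fell. GARS1, which charges glycine in cytosol and mitochondria (ENSG00000106105, GRCh38 chromosome 7, 30580533 to 30634033), stood at 380.3, 389 and 375 CPM in NT, 372, 373 and 389 in KD1, 227, 213 and 198 in KD2 and 304, 305 and 310.0 in KDR. YARS1, for tyrosine, stood at 332, 378 and 337 CPM in NT, 339, 332 and 342 in KD1, 205, 209.8 and 215 in KD2 and 271, 276 and 277 in KDR. CARS1, for cysteine, stood at 128, 138 and 123 CPM in NT, 132, 123 and 129 in KD1, 76.6, 75.2 and 74.8 in KD2 and 102, 102 and 108 in KDR. In all 3 the KD2 libraries were lowest and KDR lay between KD2 and NT without overlap. KD2 against NT gave -0.84, -0.73 and -0.78 (adjusted p = 1.6e-11, 2.3e-10 and 7.8e-10). KDR against KD2 gave 0.52, 0.39 and 0.46 (adjusted p = 5.5e-08, 6.1e-06 and 3.7e-06). The alanine, methionine, serine, asparagine and tryptophan enzymes AARS1, MARS1, SARS1, NARS1 and WARS1 fell by 0.68, 0.63, 0.46, 0.39 and 0.24. XPOT, which exports tRNA from the nucleus, fell by 0.48 and rose by 0.38 in the same comparisons (adjusted p = 8.8e-07 and 2.6e-05).

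EPRS1, which charges both glutamate and proline, was the exception among the 9: 424, 395 and 402 CPM in NT, 392, 415 and 427 in KD1, 400.0, 389.5 and 388 in KD2 and 353, 361 and 355 in KDR. NT, KD1 and KD2 overlapped (-0.05 in KD2 against NT, 95% interval -0.15 to 0.05), and KDR lay below all of them, by 0.19 against NT (adjusted p = 0.005) and 0.14 against KD2 (adjusted p = 0.032). The call against KD2 was lost in 9 of 21 alternatives, among them scaling by total counts (0.18) and leaving out any one KD2 or KDR library (0.052 to 0.11).

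Synthetases outside the set give the comparison for these values. Of 11 other cytosolic synthetases, 2 fell in KD2 against NT, TARS1 for threonine (-0.40) and IARS1 for isoleucine (-0.38), and 2 rose, LARS1 for leucine (0.24) and QARS1 for glutamine (0.26), named after their values were seen. The list median was 0.13. In KDR against KD2, TARS1 and IARS1 gave 0.21 and 0.18 and were the 2 called higher, while 4 of the 11 were lower (list median -0.11). Of 17 mitochondrial synthetases, 4 fell and 0 rose in KD2 against NT, with a median of -0.09. The smallest adjusted p was that of the cysteine enzyme CARS2 (-0.32, adjusted p = 5.9e-04). Of all genes tested 18.2% fell and 17.8% rose in KD2 against NT, and of those of at least 10 CPM 24.4% and 24.8%. The falls in both lists were near these shares, while the rises of the mitochondrial list, 0 of 17, were below them. In KDR against KD2, 15.3% of all genes tested rose and 17.1% fell, and of those of at least 10 CPM 17.8% and 24.5%. The 4 of 11 other cytosolic synthetases that were lower there were a larger share than either background. For the 9 synthetases of the set the median was -0.63, beside -0.0099 over all genes. The 9 were listed as known ATF4 targets and with earlier results of these libraries in view, so no test of one list against another was made.

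**Figure D3:**
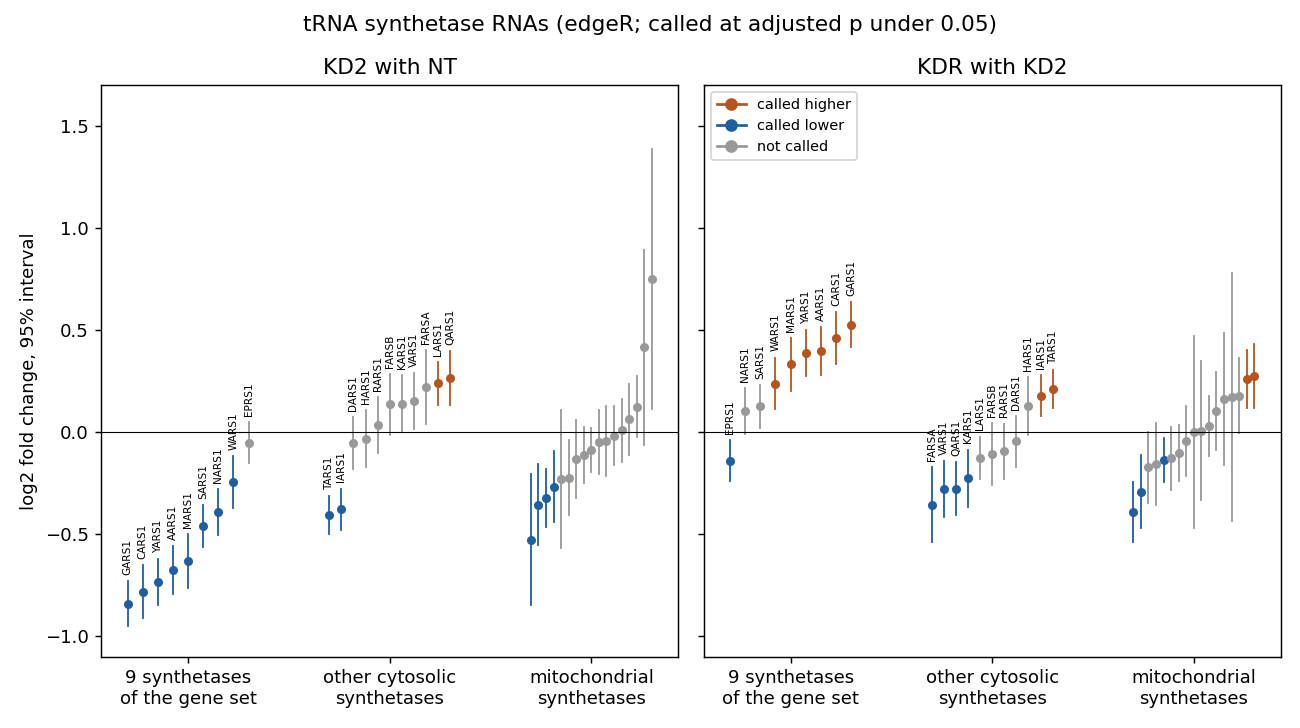
Log2 fold change with its 95% interval (vertical axis) for each tRNA synthetase, in KD2 against NT (left) and KDR against KD2 (right), by class and ordered by value within a class. Blue, orange and grey mark genes called lower, higher or not called. At left 8 of the 9 synthetases of the set are called lower, against 2 of 11 other cytosolic and 4 of 17 mitochondrial ones. Of all genes tested 18.2% were called lower there, and of those of at least 10 CPM 24.4%.

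Of the 5 stress outputs tested, which leave out FGF21, 4 fell in KD2 against NT and rose in KDR over KD2. Among all genes of at least 10 CPM, 24.4% fell and 17.8% rose in these comparisons. CHAC1, which degrades glutathione, had the largest ratio of the whole set. CHAC1 (ENSG00000128965, GRCh38 chromosome 15, 40952962 to 40956512) stood at 84.8, 97.5 and 79.8 CPM in NT, 91.4, 84.4 and 81.3 in KD1, 27.9, 31.2 and 28.0 in KD2 and 63.8, 63.3 and 67.4 in KDR. KD2 was 3.01-fold below NT (-1.59, 95% interval -1.76 to -1.42, adjusted p = 3.6e-13). KDR was 2.23-fold above KD2 (1.16, adjusted p = 1.2e-10), and KDR was lower than NT by 0.43 (adjusted p = 1.8e-04). NT and KD1 overlapped, and no library of KD2 or KDR came within their range.

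STC2, a secreted glycoprotein, stood at 295, 317 and 283 CPM in NT, 287, 279 and 276 in KD1, 152, 151 and 158 in KD2 and 205, 204 and 218 in KDR. No KD2, KDR or NT library overlapped another of these groups, with -0.96 in KD2 against NT and 0.44 in KDR against KD2 (adjusted p = 3.0e-12 and 1.2e-06). The leucine sensor and mTORC1 inhibitor SESN2 stood at 106, 126 and 101 CPM in NT, 101, 110.5 and 109 in KD1, 71.0, 71.8 and 77.4 in KD2 and 98.6, 91.9 and 98.4 in KDR. KD2 was lowest and KDR lay just under NT, with -0.60 and 0.39 in those comparisons (adjusted p = 1.2e-06 and 2.9e-04). KDR against NT (-0.20, adjusted p = 0.046) lost its call in 15 of 21 alternatives (0.053 to 0.18). These include leaving out NT replicate 2 (-0.11, adjusted p = 0.15), any one KD1, KD2 or KDR replicate, and adding the replicate block (0.056). DDIT4 (REDD1), another mTORC1 inhibitor, fell by 0.54 in KD2 and rose by 0.24 in KDR over KD2 (adjusted p = 2.8e-06 and 0.015), a rise not called without KD2 replicate 2 (0.061) or KDR replicate 1 (0.065).

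VLDLR, a lipoprotein receptor that ATF4 can induce, went another way: 26.8, 27.3 and 27.7 CPM in NT, 25.9, 28.4 and 24.8 in KD1, 25.9, 26.7 and 23.7 in KD2 and 18.9, 17.0 and 16.2 in KDR. Its NT, KD1 and KD2 levels lay close together and KDR was the lowest group without overlap. It differed by -0.55 against KD2 (adjusted p = 6.0e-05) and -0.65 against NT (adjusted p = 1.0e-05), while KD2 against NT gave -0.10 (adjusted p = 0.45).

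**Figure D4:**
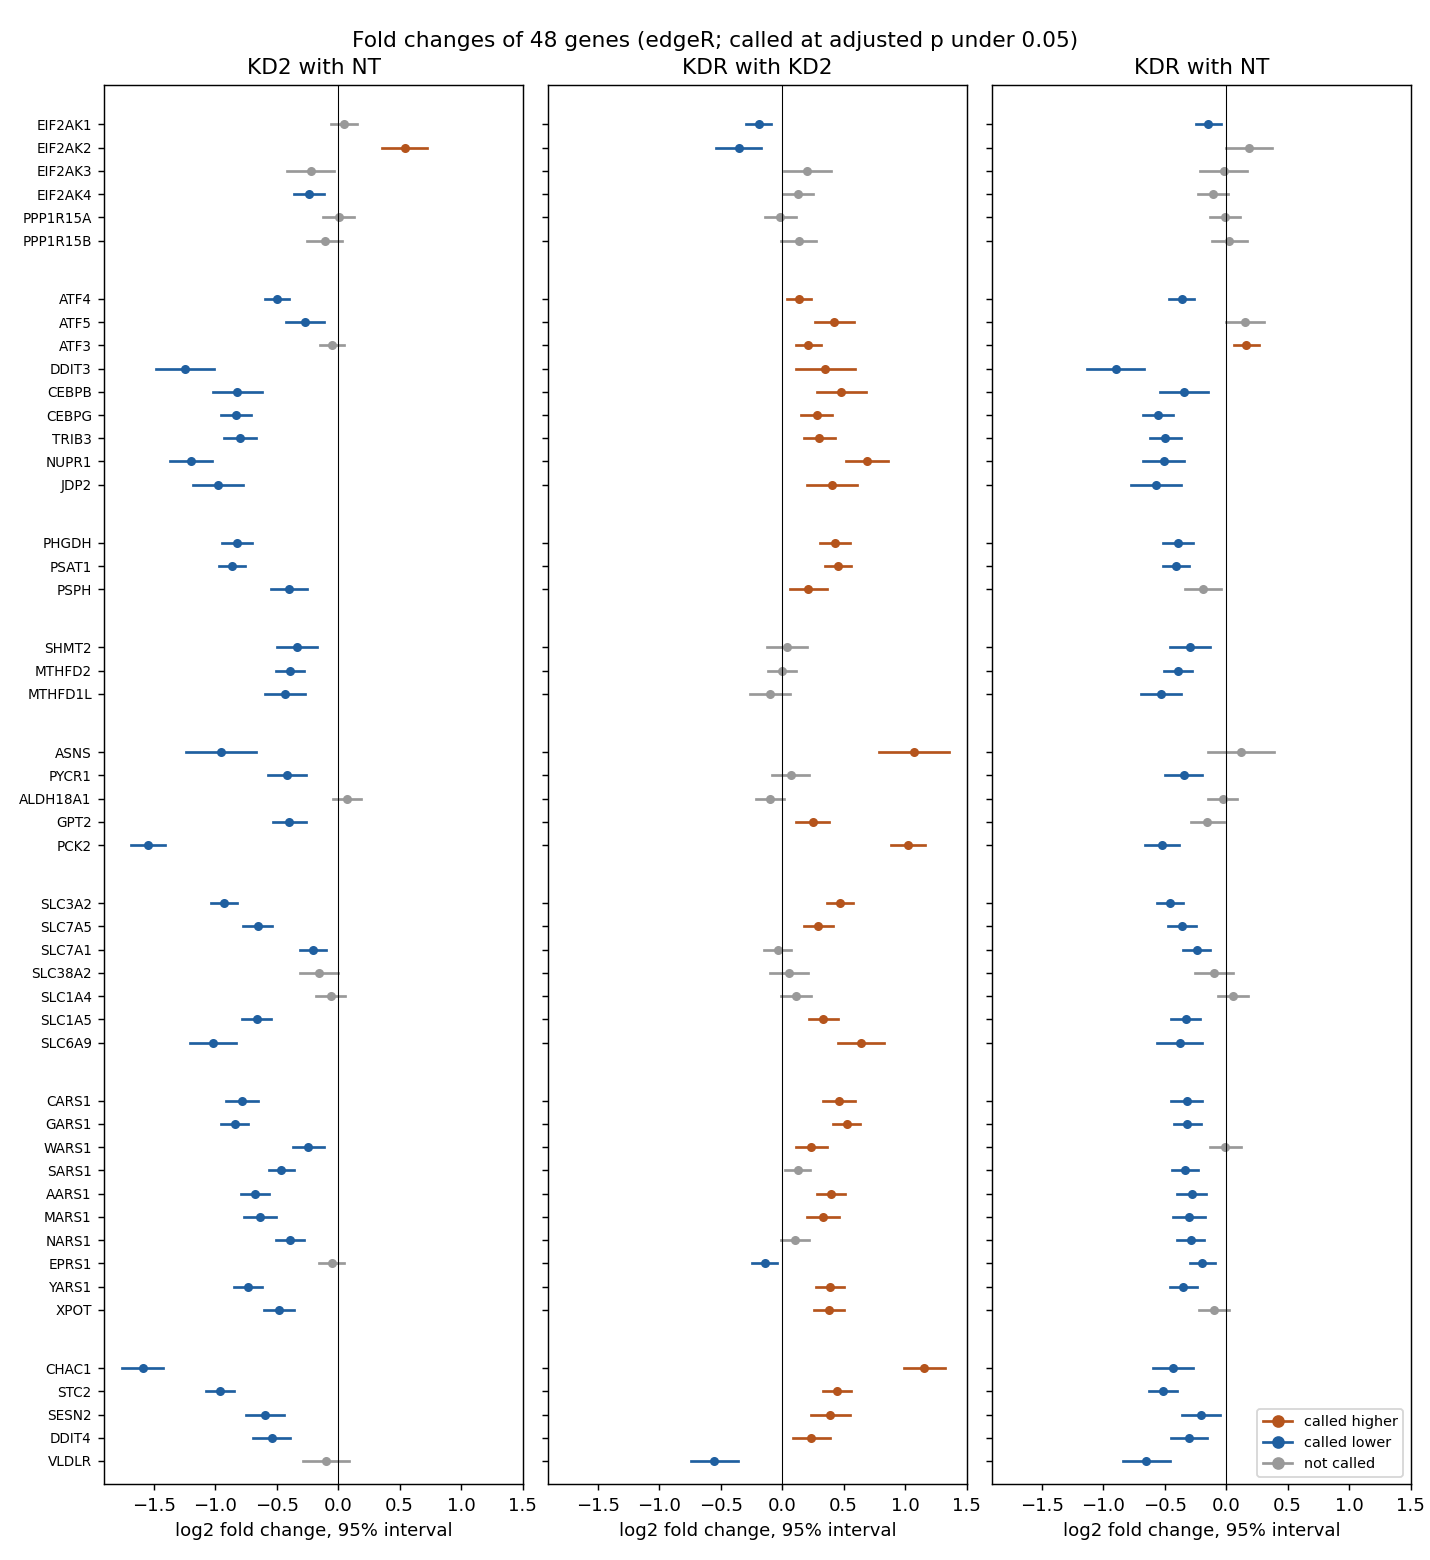
Log2 fold changes with 95% intervals (horizontal axes) of 48 members in 3 comparisons, in the same row order as the plot by library. Blue marks genes called lower, orange higher and grey not called at an adjusted p under 0.05; 37 rows are blue at left, 30 orange in the middle and 33 blue at right, and the panels share KD2, KDR or NT libraries.

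Other genes of these pathways were mixed. Of 17 further targets of ATF4 or CHOP tested, 9 fell and 2 rose in KD2 against NT (median -0.25). In KDR over KD2, 5 rose and 4 fell (median 0.04). Of all genes tested 18.2% fell and 17.8% rose in KD2 against NT, and 15.3% rose and 17.1% fell in KDR over KD2. Of those of at least 10 CPM, 24.4% fell and 24.8% rose in KD2, and 17.8% rose and 24.5% fell in KDR. Both rises in KD2, of the proapoptotic BBC3 (0.26) and the death receptor TNFRSF10B (0.23), were of genes that CHOP is known to induce. They are named after their values were seen. VEGFA, the angiogenic factor, stood at 698 ± 4.23 CPM in NT, 439 ± 10.1 in KD2 and 1065 ± 14.3 in KDR. It was lower in KD2 (-0.67) and higher in KDR than in NT (0.61; adjusted p = 1.9e-11 and 2.0e-10). ADM2, a secreted peptide, fell by 0.92 in KD2 and rose by 0.51 in KDR over KD2. GABARAPL1, of autophagosome formation, fell by 1.40 in KD2 and differed by 0.04 in KDR against KD2 (adjusted p = 0.81), so its KDR level of 9.29 CPM stood beside the KD2 level of 9.05.

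Among 15 other amino acid carriers tested, 6 fell and 1 rose in KD2 against NT. SLC7A11, the cystine carrier, fell by 0.58 and rose by 0.58 in KDR over KD2, to 480.3 CPM against 481 in NT. SLC43A2, a carrier of large neutral amino acids, fell by 0.45 and then exceeded NT in KDR by 0.32 (adjusted p = 0.005), and SLC1A2, a glutamate carrier of low level, fell from 2.82 to 1.03 CPM. Of 19 other amino acid enzymes tested, 4 fell and 2 rose. Of all genes tested 18.2% fell and 17.8% rose in KD2 against NT, and of those of at least 10 CPM 24.4% and 24.8%. The falls among the enzymes were thus near the background and the rises below it. ASS1, which makes argininosuccinate, fell by 0.79, the aspartate transaminase GOT1 fell by 0.59, and MTHFD1, the cytosolic folate enzyme, rose by 0.47 (adjusted p = 1.2e-09, 5.4e-07 and 6.9e-06). MTHFD1 works in the cytosol on the reactions that MTHFD2 and MTHFD1L catalyse in mitochondria. Its KDR level differed from NT by 0.11 (adjusted p = 0.25).

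Of 14 genes for eIF2, its exchange factor eIF2B and regulators of the kinases, 3 rose and 3 fell in KD2 against NT (median -0.12). Of all genes of at least 10 CPM, 24.8% rose and 24.4% fell there, so this list was near the background. GCN1, which activates GCN2 on stalled ribosomes, rose by 0.36 (adjusted p = 2.7e-05), DNAJC3, an inhibitor of PERK and PKR, rose by 0.28 (adjusted p = 0.004), and EIF5, which acts on eIF2 at start codons, fell by 0.32 (adjusted p = 2.1e-04). In the mTORC1 amino acid sensing list, 11 of 25 fell and 5 rose (median -0.01). All 5 subunits of the lysosomal Ragulator scaffold, LAMTOR1 to LAMTOR5, fell, by 0.30 to 0.62, and are named after their values were seen. The GTPase RRAGD fell by 1.05, the kinase MTOR rose by 0.46 and its inhibitor DEPTOR rose by 0.86. Against NT the KDR levels of the last pair differed by -0.02 and 0.04. Of 12 mitochondrial chaperones and proteases, 3 fell and 3 rose (median 0.01), shares at or near those of all genes of at least 10 CPM (24.4% and 24.8%). The falls were the chaperones HSPA9 (-0.36) and HSPE1 (-0.36) and the protease LONP1 (-0.54). The rises, named after their values were seen, were the chaperones HSPD1 (0.21) and TRAP1 (0.31) and the protease HTRA2 (0.37).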

How the data were processed

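Poly-A RNA of 12 libraries was sequenced on an Illumina NovaSeq X Plus, per the labels. The deposited tables hold counts per gene, made by the authors with featureCounts 1.6.4 on Ensembl release 111 (GRCh38) per the file headers; HISAT2 and cutadapt are named in the submitters' processing notes. The command recorded there sets neither strand nor multiple mapping, so reads over several genes or places are not counted. This can lower overlapping genes and the 13 members with a pseudogene of the same symbol. Those 13 were found by symbol alone, and the effect on their counts was not measured.

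Counts were filtered with filterByExpr, scaled by TMM and fitted in 1 edgeR quasi-likelihood model (edgeR 4.0.16, R 4.3.3; 4 groups, 8 residual degrees of freedom), with 5 contrasts and Benjamini-Hochberg adjustment over 19373 genes; a gene was called at an adjusted p under 0.05, and rose, fell, higher and lower refer to such calls unless only values are given. Fold changes are edgeR estimates and group values are mean ± SD of CPM. Levels between genes are CPM per kb of exon. DESeq2 1.42.0, limma-voom (limma 3.58.1) and other settings made 21 alternatives. The procedure was tested on simulated counts. Members and lists were chosen with earlier results of these data known. Within each role group the genes named with every library are the 3 of smallest adjusted p in KD2 against NT, with ATF4 and members called opposite to their group; EIF2AK1 and ATF3 were added after their values were seen.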

Additional observations from a re-analysis of the deposited data

How the results depend on the processing

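Over 21 alternatives (DESeq2, DESeq2 size factors, filters, only the groups compared, limma-voom, the replicate block, 2 scalings added after seeing the data, and leaving out each library), no called member changed direction, and in KD2 against NT no member call was lost. Replicate numbers gave no pairing: over 11201 genes, 1 of 18 same-number pairs had deviations correlated above 0.1 (range -0.16 to 0.25), and 5 of 12 libraries correlated best with their own number. With the replicate block, 6882 genes were called in KD2 against NT (37 members lower), 6190 in KDR against KD2 (30 higher), 5219 in KDR against NT (32 lower) and 6789 in KD2 against KD1 (39 lower). In KD1 against NT, 23 genes were called without the filter, and the members' median was 0 with limma-voom and -0.07 to 0 with a library left out. In KDR against KD2 the median was 0.3 with scaling by total counts or the upper quartile, and with a library left out 26 to 36 members were higher and 3 to 5 lower. In KDR against NT, 0 members were higher with only those groups fitted and 0 to 2 with a library left out, and the median was -0.26 with limma-voom and -0.35 to -0.23 with a library left out. In KD2 against KD1, 2 members were higher with only those groups fitted or with limma-voom, 0 with scaling by total counts (median -0.48), and 0 to 2 with a library left out. In KD2 against NT, 1 to 2 members were higher and 37 to 40 lower with a library left out. The cause of these moves was not tested. NT varied most (biological coefficient of variation 15.7%, and 8.57% without replicate 2, against 5.52% to 7.16% in the other groups). Depth limited FGF21 and ALDH1L2.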
